A study of Drosophila melanogaster x Drosophila simulans and Drosophila melanogaster and Drosophila simulans with 186 samples.

Results

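The hemocyte primordium genes examined here were the transcription factors srp, gcm and gcm2 and the products typical of differentiated blood cells NimC4, crq and Pxn. They were taken from a list of names, with no threshold on their values, and are 6 of the 13577 genes of the expression files. Each embryo was cut across its length into sections, and each section (slice) was sequenced as 1 library, from the anterior end (slice 1) to the posterior end. The hybrids were 2 simXmel embryos (D. simulans w501 mother, D. melanogaster DGRP-340 father) and 3 melXsim embryos (DGRP-340 mother, w501 father). The parental embryos were 1 simXsim embryo (w501) and 1 melXmel embryo (DGRP-340). All 7 were blastoderm embryos of cycle 14C, laid and aged at 25 degrees and fixed in methanol. Each species is represented by 1 strain, and the whole embryo is cut, so a slice holds every cell type at its position. In a slice, fewer cells of a type and less RNA per cell cannot be told apart.

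Hemocytes are the blood cells of Drosophila, and those of the embryo arise from the mesoderm of the head. The GATA factor Serpent (srp) is needed for them and also acts in the fat body and the midgut. The zinc finger factor glial cells missing (gcm), with its close relative gcm2, directs most of these cells to become plasmatocytes, the phagocytes of the fly, and gcm is also the switch that makes glia. NimC4 (also called simu) and crq (croquemort, a relative of CD36) encode receptors through which phagocytes take up dying cells. Pxn encodes peroxidasin, an enzyme that hemocytes secrete into the extracellular matrix. At the blastoderm stage these cells have not yet differentiated, and the embryo still holds RNA that the mother put into the egg.

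The data are 186 slice libraries, 25 to 27 per embryo. Expression is in FPKM, fragments scaled to the length of the gene and to the fragments mapped in the slice, and was used for the 169 slices in the joint expression table, 118 of them hybrid. The allele-specific expression (ASE) score runs from -1 (all D. melanogaster) to 1 (all D. simulans) and was used for 178 slices, 126 of them hybrid. Allele counts are the read counts at bases that differ between the species. Over the 3005 genes whose counts could be used, the median slice of an embryo held 1207734 to 1655682 allele counts, and single slices ranged from 17 to 3758730. One read can be counted at several bases, so no binomial interval was taken from these counts. Position is given as the percentage of an embryo's slices counted from the anterior end. Windows were the tip (below 10%), the head (10 to 35%), the trunk (40 to 80%) and the posterior end (from 85%). Tests were over embryos, since slices of 1 embryo are not replicates.

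Of the 4 genes with more than traces of RNA, gcm alone had its highest slice in the head window. srp was broad with a cap at the posterior pole, NimC4 was lower in front than in the trunk and behind it, and crq peaked at the anterior tip. gcm2 and Pxn were close to 0 in every embryo. The traces of gcm2 lay mostly in the head, except in melXsim embryo 3, with its only trace at 90.7%, and melXmel, with none. By the highest slice, the label of a hemocyte primordium thus fitted gcm, and the traces of gcm2 where they lay in the head. The highest slices of srp, NimC4 and crq lay outside the head, and those of Pxn were scattered. srp RNA was nonetheless present in the head, at a hybrid mean of 41.8 FPKM against 42.3 FPKM in the trunk. crq was higher in the head than in the trunk in the main windows.

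**Figure D1:**
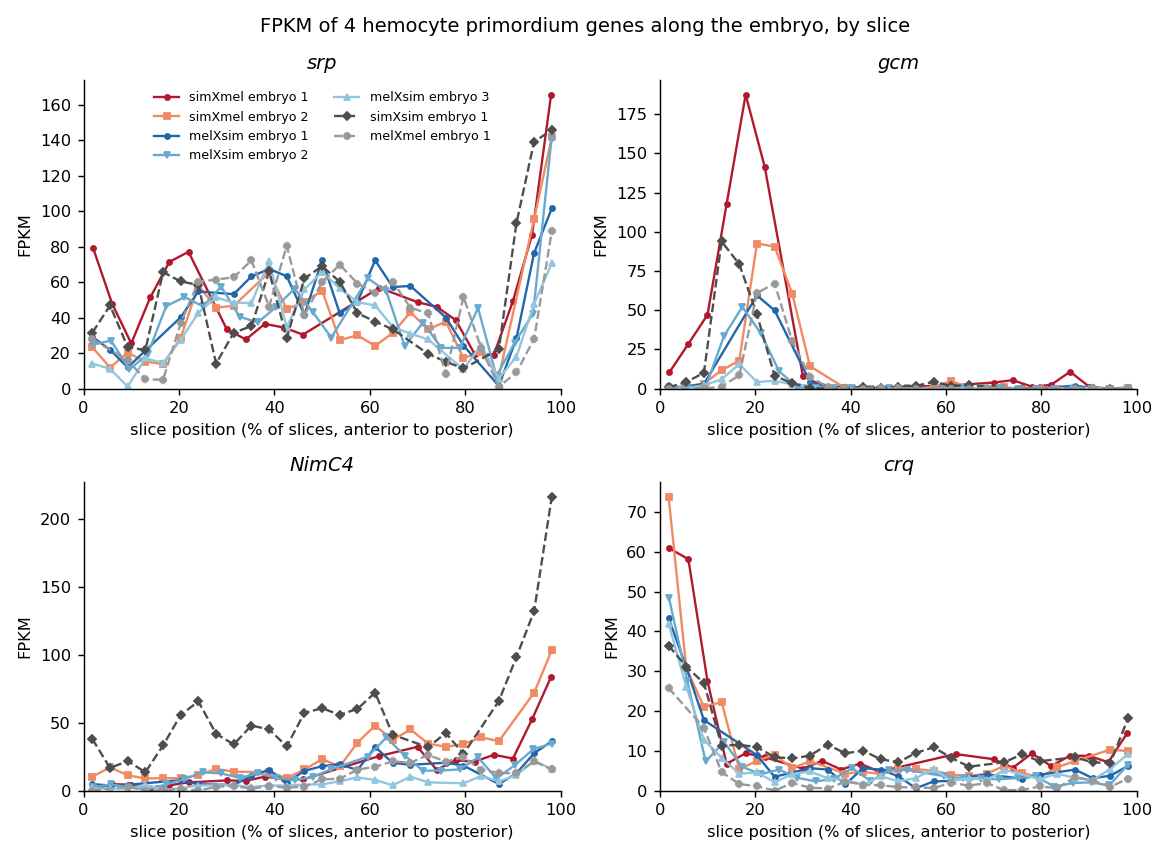
FPKM of srp, gcm, NimC4 and crq (vertical axes) against slice position in percent from anterior to posterior (horizontal axes). Each line is 1 embryo, with hybrids solid (red and orange for simXmel, blues for melXsim) and parental embryos dashed grey, and points are slices. The gcm peaks lie between 12.96 and 24.1% in all 7 embryos, and the crq lines start with their highest slice.

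srp lies on chromosome 3R (11811874 to 11829803, forward strand, release 5 coordinates of the expression files). It averaged 52.3 and 39.5 FPKM over the slices of the 2 simXmel embryos and 48.7, 40.9 and 35.7 FPKM in the 3 melXsim embryos, against 49.4 FPKM in the simXsim embryo and 43.0 FPKM in the melXmel embryo. These levels overlapped between the crosses and the parents. Of the 20 to 26 slices with FPKM per embryo, at least 20 were over 10 FPKM, so srp RNA was present along nearly the whole axis. The last slice held 166 and 142 FPKM in the simXmel embryos and 101.6, 141 and 70.8 FPKM in the melXsim embryos, against 146 FPKM in the simXsim and 88.8 FPKM in the melXmel embryo. It was the highest slice in 6 of the 7 embryos, the exception being melXsim embryo 3, where slice 11 held 71.7 FPKM. Just in front of this cap was a gap. The lowest slice behind 75% of the axis held 19.1 and 6.67 FPKM in the simXmel embryos and 1.53, 7.08 and 5.68 FPKM in the melXsim embryos, against 11.4 FPKM in the simXsim and 1.03 FPKM in the melXmel embryo.

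Windows were compared within an embryo as differences of log2(FPKM + 1), which understates the change of low genes, and tested over the 5 hybrids with limma at an adjusted p below 0.05. Of all genes tested, 8.97% were called for the head against the trunk, 15.1% for the tip against the trunk and 11.3% for the posterior end against the trunk. Of the 4 members that could be tested, 3 were called for the head, 3 for the tip and 1 for the posterior end. gcm2 and Pxn fell below the filter of a mean of 0.5 FPKM and were not tested. srp was called in none of the 3 comparisons. Its head difference was -0.02 ± 0.08 (SE, limma adjusted p = 0.90) and its tip difference was -0.92 ± 0.28 (adjusted p = 0.051). Of the hybrids, only simXmel embryo 1 had a higher tip than trunk for srp, at 0.57. Without that embryo the tip difference was -1.297 (limma adjusted p = 0.0025).

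The posterior cap of srp was narrower than the posterior window, which also takes in the gap. The posterior difference was 0.46 ± 0.17 (limma adjusted p = 0.12), and with windows that began at 92% it was 1.14 ± 0.16 (adjusted p = 0.00067). By embryo the wider window gave 0.90 and 1.16 in the simXmel embryos and -0.00086, 0.43 and -0.21 in the melXsim embryos. The difference between the crosses was 0.96 and was not called (limma adjusted p = 0.12). The same difference was 1.38 in the simXsim and -0.70 in the melXmel embryo. Without melXsim embryo 3 the posterior difference was called (0.62, adjusted p = 0.036).

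gcm lies on chromosome 2L (9579498 to 9581745, reverse strand) and was the gene with a head domain. Its highest slice held 188 and 92.6 FPKM in the simXmel embryos and 59.5, 52.1 and 15.7 FPKM in the melXsim embryos, against 93.9 FPKM in the simXsim and 67.04 FPKM in the melXmel embryo. That slice lay at 18 and 20.4% in the simXmel embryos and at 20.4, 17.3 and 16.7% in the melXsim embryos, against 12.96% in the simXsim and 24.1% in the melXmel embryo. In each embryo 1 to 3 slices reached 50% of that value. The head window exceeded the trunk by 4.35 ± 0.30 on the log2 scale (limma adjusted p = 1.2e-05), with hybrid values of 4.67 and 4.92 in simXmel and 5.15, 4.31 and 2.71 in melXsim. The parental values were 4.12 in simXsim and 4.79 in melXmel, inside the range of the hybrids.

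The tip also exceeded the trunk for gcm, by 1.21 ± 0.29 (limma adjusted p = 0.016), but unevenly. simXmel embryo 1 stood at 2.61, while the other hybrids lay between 0.67 and 1.16. This call was lost with narrower windows (0.67, adjusted p = 0.15), without melXsim embryo 1 (1.23, adjusted p = 0.061) and with no filter on low genes (adjusted p = 0.094). The tip of simXmel embryo 1 averaged 19.4 FPKM, above the highest gcm slice of melXsim embryo 3, and its posterior window reached 10.8 FPKM in 1 slice. The trunk was low, with a mean of 2.34 and 0.62 FPKM in simXmel and 0.095, 0.18 and 0.058 FPKM in melXsim.

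**Figure D2:**
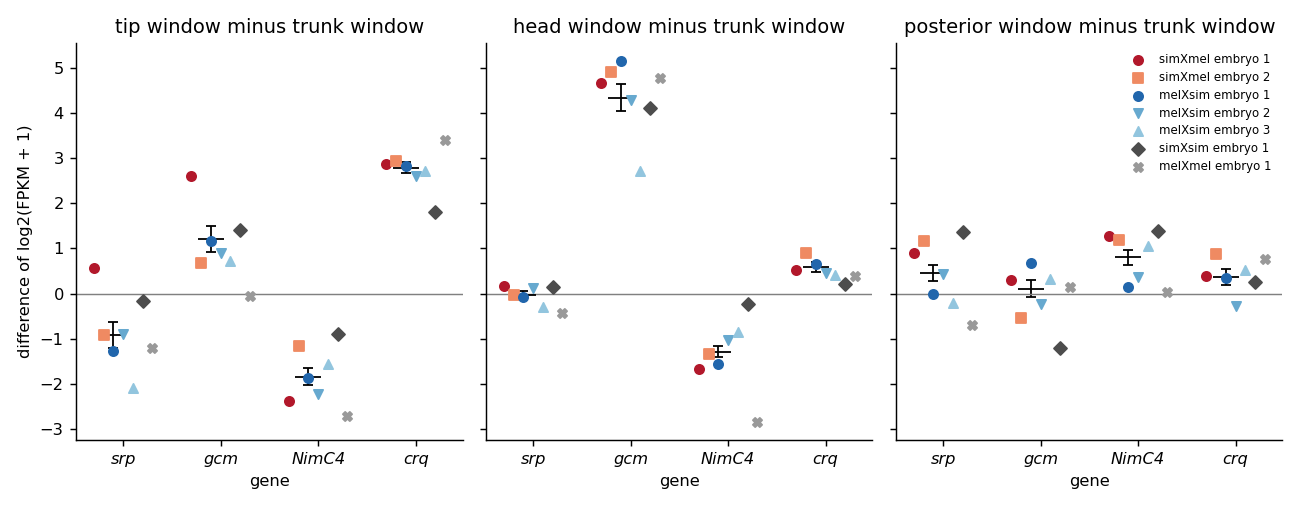
Difference of log2(FPKM + 1) between the tip, head or posterior window and the trunk window (vertical axis) for srp, gcm, NimC4 and crq (horizontal axis). Coloured points are single embryos, hybrids left of parental embryos, and the black bar is the limma mean of the 5 hybrids with its SE. The head difference of gcm (4.35) and the tip difference of crq (2.79) were the largest of the 4 genes in those windows.

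NimC4 lies on chromosome 2L (14047582 to 14048863, forward strand), within an intron of nAChRalpha5, a gene of the same strand that averaged 0.016 FPKM in the hybrids. NimC4 was lower in the head than in the trunk by 1.29, a difference of -1.29 ± 0.13 (limma adjusted p = 0.00016), and lower still in the tip (-1.85 ± 0.19, adjusted p = 7.3e-05). Every hybrid had the lower level in front. The head held 5.17 and 11.4 FPKM in the simXmel embryos and 5.50, 8.24 and 3.0 FPKM in the melXsim embryos. The trunk held 18.6 and 30.2 FPKM in simXmel and 18.3, 17.8 and 6.25 FPKM in melXsim. The posterior window was higher than the trunk by 0.80 ± 0.17 (limma adjusted p = 0.010), with values of 1.28 and 1.20 in simXmel and 0.14, 0.36 and 1.05 in melXsim. With no filter on low genes that call was lost (limma adjusted p = 0.085). The same posterior difference was 1.40 in the simXsim embryo but 0.024 in the melXmel embryo. The highest NimC4 slice lay at 63.5% in melXsim embryo 2 and at 72.2% in melXmel.

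The 2 parental embryos differed in NimC4 over the whole axis and most in the front. In the simXsim embryo it averaged 56.2 FPKM and stayed at or above 13.5 FPKM in every slice, with 216 FPKM in the last. In the melXmel embryo it averaged 10.1 FPKM and was at most 3.48 FPKM over the first 40% of the axis. In the tip the simXsim embryo held 25.4 FPKM and the melXmel embryo 1.49 FPKM. The head window held 40.6 FPKM in simXsim, against 1.28 FPKM in melXmel, a ratio of 31.7. The trunk ratio was 3.13 and the posterior ratio 8.19. With 1 embryo of each species these ratios have no replicate check.

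crq lies on chromosome 2L (448254 to 453024, reverse strand). It was highest in slice 1 of all 7 embryos. That slice held 60.9 and 73.9 FPKM in the simXmel embryos and 43.4, 48.5 and 42.0 FPKM in the melXsim embryos, against 36.4 FPKM in the simXsim and 25.8 FPKM in the melXmel embryo. The tip exceeded the trunk by 2.79 ± 0.12 (limma adjusted p = 8.9e-08), with a range of 2.60 to 2.94 over the hybrids. The head was also higher, by 0.59 ± 0.11 (adjusted p = 0.0071), which was lost with narrower windows (0.37, adjusted p = 0.15). Behind the tip a low level continued. The trunk held 7.28 and 4.60 FPKM in simXmel and 3.43, 3.76 and 3.25 FPKM in melXsim, against 8.33 FPKM in simXsim and 1.05 FPKM in melXmel. Of the exon bases of crq, 448 are shared with ex on the other strand. ex averaged 2.29 FPKM in the hybrids, so part of a low crq level cannot be told apart from ex.

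gcm2 (chromosome 2L, 9608562 to 9612706, forward strand) never exceeded 0.61 FPKM in a hybrid slice. Its highest slice held 0.51 and 0.61 FPKM in the simXmel embryos and 0.083, 0.23 and 0.056 FPKM in the melXsim embryos, against 1.94 FPKM in simXsim and 0 in every slice of melXmel. In 4 of the 5 hybrids and in simXsim that slice lay between 14.0 and 24.1%, where gcm also peaked. Whether reads of its relative gcm contributed was not tested. Pxn (chromosome 3L, 2601455 to 2630064, reverse strand) reached 1.26 and 0.84 FPKM in the simXmel embryos and 0.30, 1.28 and 0.31 FPKM in the melXsim embryos. In the parental embryos it reached 1.302 FPKM in simXsim and 0.44 FPKM in melXmel. Its highest slices were scattered along the axis. Over all slices it had 81 D. simulans and 22 D. melanogaster counts in simXmel embryo 1 and 83 and 26 in simXmel embryo 2. In melXsim it had 5 and 8, 14 and 24, and 5 and 7 counts in embryos 1, 2 and 3. The larger share was the maternal one in 5 of 5 hybrids, but the melXsim counts were too few to rely on. In melXsim embryo 2, slice 18 alone held 19 of the 24 D. melanogaster counts and no D. simulans count.

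Whole-embryo levels were next compared between the directions of the cross, as simXmel minus melXsim of log2(mean FPKM + 1). Of all genes tested, 16.6% were called, and of the 4 members 1 was. gcm averaged 28.6 and 11.98 FPKM over the slices of the simXmel embryos and 5.585, 5.567 and 1.52 FPKM in the melXsim embryos. Its difference was 2.04 ± 0.50 (limma adjusted p = 0.017). It rested on simXmel embryo 1, without which the difference was 1.44 (adjusted p = 0.20), and within the head window alone it was 1.81 (adjusted p = 0.078). With no filter on low genes it was not called either (adjusted p = 0.13). NimC4 averaged 18.3 and 28.1 FPKM in simXmel and 14.5, 14.6 and 6.08 FPKM in melXsim, and crq 13.9 and 10.9 FPKM in simXmel and 7.71, 6.79 and 6.62 FPKM in melXsim. The differences of 0.98 ± 0.41 (limma adjusted p = 0.14) for NimC4 and 0.73 ± 0.33 (adjusted p = 0.16) for crq were not called. That of srp was 0.13 ± 0.28 (adjusted p = 0.79).

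The hybrids were also set against the mean of the 2 parental embryos. Only 0.0137% of genes were called (1 of 7292, with 75 at an unadjusted p below 0.05), and of the 4 members 0 were called by limma and 0 had an unadjusted p below 0.05. The differences were -0.085 ± 0.25 for srp, 0.029 ± 0.46 for gcm, -0.58 ± 0.38 for NimC4 and 0.53 ± 0.30 for crq on the log2 scale. All 4 had an adjusted p of 1. The lone parental embryos were assumed to vary like the hybrids.

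The alleles of NimC4 were next followed along the axis. The counts came from 57 variable bases, 55 of them in coding exons and 2 in the 3′ UTR. In the first 40% of the slices, the hybrids held 136 and 513 D. simulans counts in simXmel and 178, 281 and 109 in melXsim, against 17 and 130 D. melanogaster counts in simXmel and 52, 51 and 43 in melXsim. The D. simulans share was thus 88.9 and 79.8% in simXmel and 77.4, 84.6 and 71.7% in melXsim. In the last 40% it was 41.5 and 47.8% in simXmel and 30.7, 31.2 and 26.4% in melXsim. Anterior and posterior shares did not overlap, and both directions of the cross leaned the same way.

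**Figure D3:**
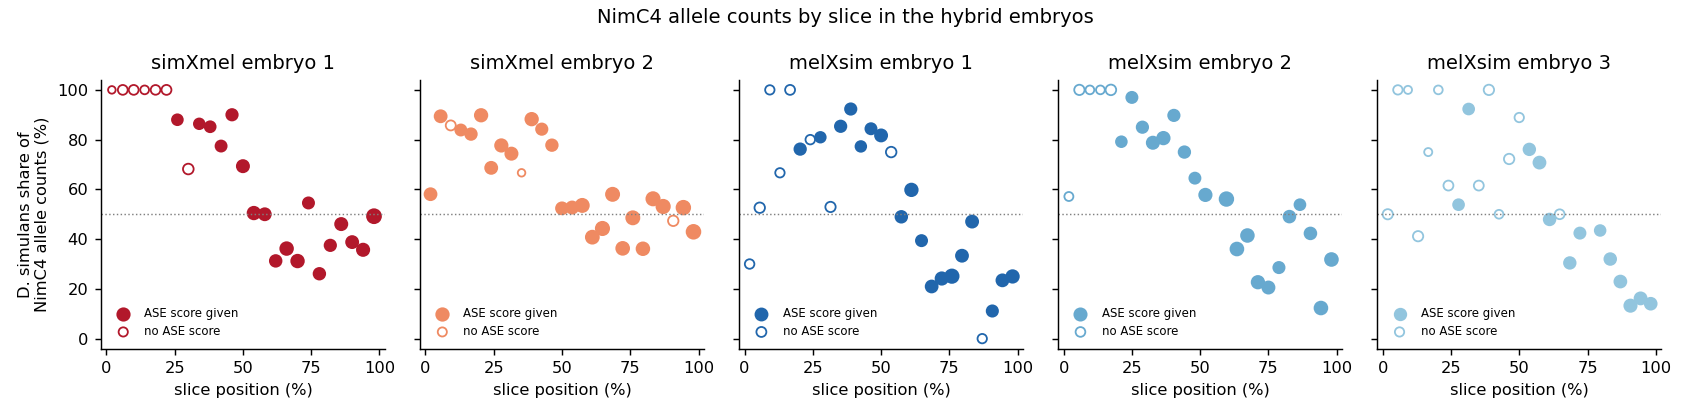
D. simulans share of the NimC4 allele counts in percent (vertical axis) by slice position (horizontal axis) in the 5 hybrid embryos, for slices with at least 3 counts. Filled points have an ASE score in the authors' table, open points have none, and larger points have more counts. Summed over the 5 embryos the share was 80.6% in the first 40% of the axis and 39.0% in the last 40%.

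This difference was tested as the anterior minus the posterior ASE of each embryo. Of all genes, 1.24% were called with at least 3 scored slices per window, and NimC4 was not among those tested because melXsim embryo 3 has only 2 scored anterior slices. With 2 slices 1.15% were called, and NimC4 was, with a shift of 0.90 ± 0.063 (limma adjusted p = 0.0094). On the deposited gene sums of allele counts 1.02% were called, and NimC4 had a log2 odds shift of 2.97 ± 0.27 (edgeR quasi-likelihood adjusted p = 0.010). Without melXsim embryo 3 the shift was 0.92 (limma adjusted p = 0.042). In a fit of step and peak curves to ASE over all hybrid slices, 1.36% of genes had at least 45% of their variance explained. NimC4 had 77.4%, rank 3 of 4341 genes, for a step from an ASE of 0.62 in front to -0.31 behind with its midpoint at 56%. From its counts (112 slices) the step explained 67.5%.

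The shift was not confined to a few bases. Neighbouring bases can be covered by the same reads, so they are not separate pieces of support. Of the 56 bases with at least 10 anterior counts over the hybrids, 56 had more D. simulans than D. melanogaster counts. Of 57 bases with at least 10 posterior counts, 55 had more D. melanogaster counts. The best covered base, A14047981G on chromosome 2L (D. melanogaster base, release 5 position, D. simulans base), is in a coding exon. It had 70 D. simulans and 15 D. melanogaster counts in front and 97 and 145 behind. In the parental embryos 18 NimC4 counts of simXsim (0.282%) were assigned to D. melanogaster, beside 6372 to D. simulans, and 0 of 1258 counts of melXmel to D. simulans.

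Splitting the FPKM of a window by its allele share gives a level for each allele. In the head window the D. simulans allele held 4.57 and 9.04 FPKM in simXmel and 4.18, 7.06 and 2.02 FPKM in melXsim. The D. melanogaster allele held 0.61 and 2.34 FPKM in simXmel and 1.33, 1.17 and 0.98 FPKM in melXsim. In the posterior window the D. simulans allele held 21.3 and 34.6 FPKM in simXmel and 4.28, 6.39 and 2.29 FPKM in melXsim. The D. melanogaster allele held 25.2 and 35.95 FPKM in simXmel and 16.04, 16.7 and 11.7 FPKM in melXsim. The D. melanogaster allele was thus higher in the posterior window than in the head in 5 of 5 hybrids. The D. simulans allele was clearly higher there in the 2 simXmel embryos only. In melXsim its posterior level was near that of the head and below its trunk level of 7.60, 8.32 and 3.52 FPKM. The D. simulans allele in hybrid heads, at most 9.04 FPKM, was below the 40.6 FPKM of the simXsim head.

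The posterior parental levels and the posterior alleles of NimC4 pointed in opposite directions. The simXsim embryo had 8.19 times the posterior level of the melXmel embryo, which as a ratio of alleles would be an ASE of 0.78, whereas the posterior ASE from counts was -0.084 and -0.019 in simXmel and -0.58, -0.45 and -0.67 in melXsim. In the head the parental levels correspond to an ASE of 0.94, and the hybrids had 0.77 and 0.59 in simXmel and 0.52, 0.72 and 0.35 in melXsim. These parental values rest on 1 embryo each.

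A bias toward 1 species in both directions of the cross was tested on the mean ASE of each embryo as a log2 ratio of D. simulans to D. melanogaster. Over all slices 5.1% of genes were called and 0 of the 4 members with ASE scores were, with limma adjusted p-values for the mean of both crosses of 0.85 for srp, 0.14 for gcm and 0.32 for NimC4. For crq the mean of both crosses was 1.62 (adjusted p = 0.0017), but the crosses differed and melXsim alone did not pass. In the head window alone 4.11% were called, and NimC4 was, at 2.38 in simXmel and 1.87 in melXsim (limma adjusted p = 0.0011 and 0.00090). That setting needed only 2 scored slices per embryo, and simXmel embryo 1 and melXsim embryos 1 and 3 had no more than 2 for NimC4. In the trunk, where 3.81% were called, NimC4 had 0.12 and 0.015 (adjusted p = 0.65 and 0.94). These windows were chosen after the values had been seen. Over the whole axis its counts were nearly even, at 50.9 and 56.0% D. simulans in simXmel and 44.9, 50.5 and 43.9% in melXsim.

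The allele balance of crq differed with the mother, and a bias toward D. simulans in both crosses was called only in some settings. Its mean ASE was 0.82 and 0.81 in simXmel and 0.063, 0.10 and -0.22 in melXsim. By summed counts over the whole axis the D. simulans share was 92.2 and 88.3% in simXmel and 59.8, 67.4 and 55.2% in melXsim. The maternal D. melanogaster allele was thus not the larger one in the melXsim sums. Maternal excess, the part of the log2 ratio that follows the mother, was called for 83.3% of all genes (median 1.93) and for 1 of 4 members. That was crq, at 1.68 ± 0.19 (limma adjusted p = 0.00012), while srp had 0.065, gcm 0.077 and NimC4 0.25. The counts behind crq came from 93 bases, of which 54 are in coding exons, 28 in the 5′ UTR and 11 in the 3′ UTR. The 6 bases shared with ex carry 4.11% of them.

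In melXsim embryos the allele shares of crq in the tip lay apart from those in the trunk and the posterior window. In the tip the D. simulans share was 91.7 and 84.4% in simXmel and 69.1, 87.3 and 80.3% in melXsim, so the paternal D. simulans allele exceeded the maternal one there in 3 of 3 melXsim embryos. In the head it was 91.2 and 89.0% in simXmel and 62.2, 72.2 and 34.9% in melXsim, and the tip against the head was not called (log2 odds difference 0.87 ± 0.51, edgeR adjusted p = 0.92). In the trunk it was 93.3 and 96.1% in simXmel but 50.6, 44.6 and 31.4% in melXsim, and in the posterior window 95.9 and 85.5% in simXmel but 32.4, 37.2 and 19.2% in melXsim. The anterior minus posterior ASE was -0.13 and -0.0086 in simXmel, against 0.42, 0.64 and 0.55 in melXsim. The mean shift of 0.30 ± 0.13 was not called (limma adjusted p = 0.46), and the difference between the crosses of -0.60 had a limma adjusted p of 0.058.

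The species bias of crq depended on how slices were weighed. With each slice counting equally it was 3.30 in simXmel (limma adjusted p = 7.0e-05) and -0.062 in melXsim (adjusted p = 0.81), and was not called. Weighted by FPKM, with 5.05% of genes called, it was 3.09 and 0.78 (limma adjusted p = 0.00017 and 0.028). On summed counts, with 5.44% called, it was 3.30 and 0.69 (edgeR adjusted p = 0.00024 and 0.036). In the tip window alone, with 3.09% called, it was 3.08 and 1.85 (limma adjusted p = 0.00019 and 0.00085). In the trunk alone it was 3.70 and -0.45 (adjusted p = 6.6e-05 and 0.15). The tip setting needed only 2 scored slices per embryo, and the simXmel embryos had no more than 2 each. The tip and trunk windows were added after the values had been seen.

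**Figure D4:**
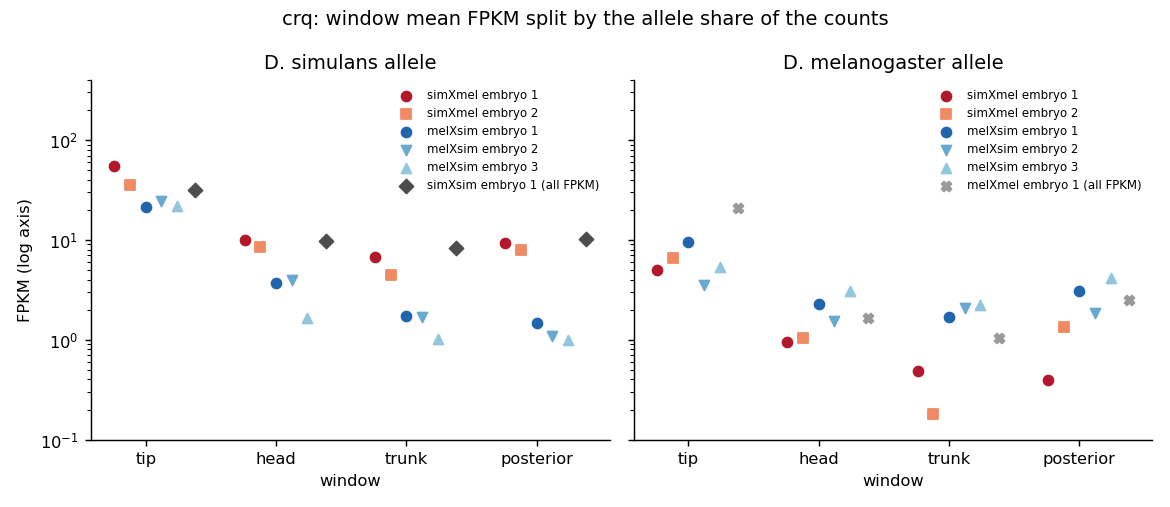
Mean FPKM of crq in 4 windows (horizontal axes) split by the allele share of the counts, on a log axis (vertical), for the D. simulans allele (left) and the D. melanogaster allele (right). Points are the 5 hybrid embryos, and the last point of each window is the total FPKM of the parental embryo of that species. In the tip the D. simulans allele lies between 21.2 and 54.6 FPKM and the D. melanogaster allele between 3.53 and 9.47 FPKM.

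By allele, the crq tip held 54.6 and 35.4 FPKM from D. simulans in simXmel and 21.2, 24.3 and 21.6 FPKM in melXsim. From D. melanogaster it held 4.94 and 6.53 FPKM in simXmel and 9.47, 3.53 and 5.32 FPKM in melXsim. The D. simulans allele was thus the higher one in the tip of 5 of 5 hybrids. In the trunk the D. simulans allele held 6.80 and 4.42 FPKM when maternal (simXmel) and 1.73, 1.68 and 1.02 FPKM when paternal (melXsim). The D. melanogaster allele held 0.48 and 0.18 FPKM when paternal (simXmel) and 1.70, 2.08 and 2.23 FPKM when maternal (melXsim). Each allele was higher in the trunk of every embryo in which it came from the mother. In the parental embryos the tip held 31.5 FPKM in simXsim, against 20.8 FPKM in melXmel, a ratio of 1.52, and the trunk ratio was 7.92.

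gcm was scored for ASE in 34 hybrid slices. In its peak slices, those from the first to the last with at least 50% of the highest FPKM, the alleles were close to even. The D. simulans share was 50.3 and 50.98% in simXmel and 51.9, 45.1 and 40% in melXsim. In the slices in front of the peak the share was lower in 5 of 5 hybrids, at 9.45 and 34.8% in simXmel and 13.6, 0 and 32.1% in melXsim. Slices 1, 2 and 3 of simXmel embryo 1 had 0, 8 and 38 D. simulans counts and 92, 131 and 218 D. melanogaster counts. Slice 4 of simXmel embryo 2 had 1 D. simulans and 85 D. melanogaster counts, and slice 4 of melXsim embryo 1 had 1 and 18. The exception was slice 5 of simXmel embryo 2, with 94 D. simulans and 72 D. melanogaster counts. Behind the peak the share was 51.7 and 47.1% in simXmel and 58.2, 55.4 and 37.8% in melXsim.

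**Figure D5:**
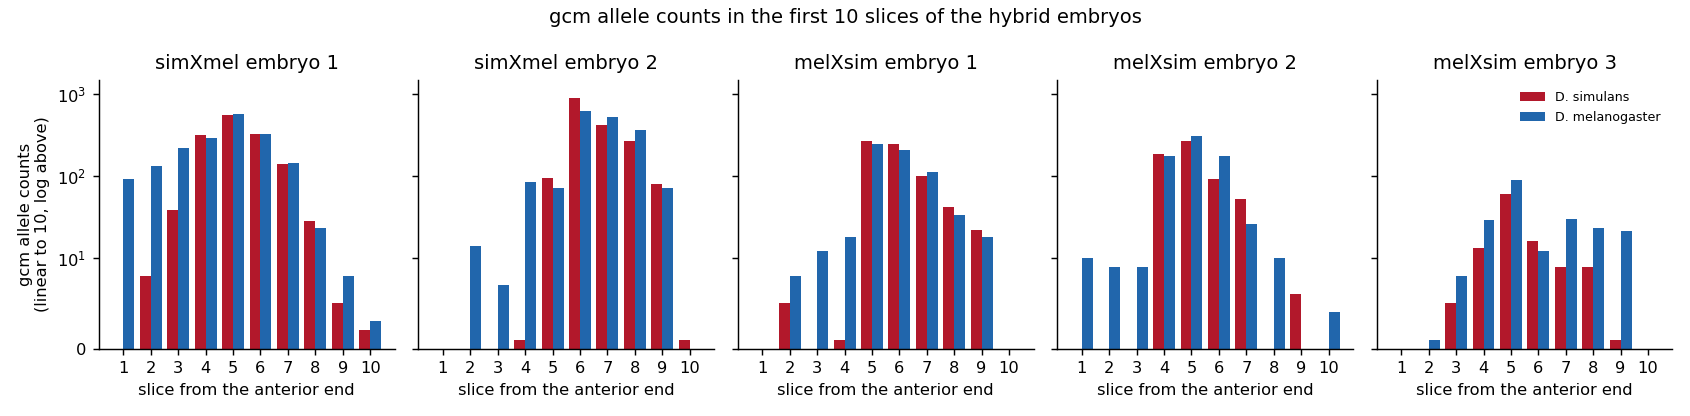
gcm allele counts (vertical axis, linear to 10 and logarithmic above) in the first 10 slices from the anterior end (horizontal axis) of the 5 hybrid embryos, with red bars for D. simulans and blue bars for D. melanogaster. In front of the peak the blue bars are mostly the higher ones, as in slice 3 of simXmel embryo 1 (38 and 218 counts) but not in slice 5 of simXmel embryo 2 (94 and 72 counts).

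These anterior gcm counts were few outside simXmel embryo 1, and their pattern was noticed in the counts themselves. In the tip window the 5 hybrids had 18 D. simulans and 294 D. melanogaster counts (5.77% D. simulans), of which 8 and 223 came from simXmel embryo 1. A test of the tip against the head on allele counts called 0% of 1340 genes (0 by edgeR, 79 at an unadjusted p below 0.05). gcm had a log2 odds difference of -3.28 ± 0.94 (unadjusted p = 0.0095, edgeR adjusted p = 0.52). The gene that shares 128 exon bases of gcm, CG31709, averaged 0.025 FPKM, and its bases carry 0.277% of the gcm counts. In the parental embryos the tip held 5.05 FPKM of gcm in simXsim, against 0.049 FPKM in melXmel, the opposite order to the alleles of the hybrids. The gcm peak lay further forward in simXsim (12.96%) than in melXmel (24.1%), so the tip window met different parts of the domain. Over all slices in front of the peak the means were 5.05 FPKM in simXsim and 1.98 FPKM in melXmel. Each is 1 embryo.

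srp had near-even alleles, with a mean ASE of -0.0065 and 0.028 in simXmel and -0.025, -0.032 and -0.046 in melXsim over 124 scored hybrid slices. Its first slice leaned to D. melanogaster in 5 of 5 hybrids, at -0.13 and -0.30 in simXmel and -0.26, -0.29 and -0.44 in melXsim. The species bias of srp in the tip window was -0.42 and was not called (limma adjusted p = 0.195), against a median of -0.24 over all genes tested. The anterior minus posterior ASE was below 0 in each hybrid, from -0.14 to -0.028, with a mean of -0.068 ± 0.021 that was not called (limma adjusted p = 0.27). The best curve explained 19.4% of its variance, and 8.30% of that of crq. Its coordinates differ between the expression files and the allele count files, so its counts were not used here. gcm2 had between 1 and 17 allele counts per hybrid embryo, too few to compare. In the simXsim embryo 6 gcm2 counts were assigned to D. melanogaster, beside 38 to D. simulans.

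Other genes, taken from a fixed list of names chosen for hemocytes, were mostly low in the head at this stage. Of a list of 28, 27 were matched and 23 averaged below 1 FPKM in the head of the hybrids, among them Hml, eater, lz and the other nimrod genes listed. Only 4 of the 28 passed the filter for the head, and the median difference of those 4 was 0.45, against 0.030 over all genes tested. Of the 4 tested there, zfh1 was called higher (1.35, limma adjusted p = 0.0090) and ush, a partner of Serpent, lower (-1.10, adjusted p = 0.00087). For the tip, drpr was called higher (0.90, adjusted p = 0.0070) and ush lower (-1.97, adjusted p = 3.9e-05). drpr encodes another receptor for dying cells. Its hybrid mean was 6.82 ± 2.93 FPKM (SD, n = 5), and it was the 1 of 3 tested genes of the list with a maternal excess (0.71, adjusted p = 0.0073). For the posterior end, peb was called higher (2.47, adjusted p = 0.00022) and ush lower (-1.51, adjusted p = 0.00034). Between the crosses drpr differed by 0.52 (adjusted p = 0.43) and ush by 0.24 (adjusted p = 0.74).

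Many markers of other tissues were also higher in windows in which members were high, while others were lower. Their part in those results was not tested. The 5 head gap genes were higher in the head than in the trunk in 5 of 5, and their summed level was 537 to 936 FPKM in the head of the hybrids and 94.1 to 184 FPKM in the trunk. In the tip btd and oc were called higher and slp1 lower, and in the posterior window gt was called lower. Of the gut primordium markers, hkb, fkh and tll were called higher in the tip (3 of 3 tested), with sums of 704 to 1782 FPKM there and 1.09 to 2.66 FPKM in the trunk, and byn and GATAe were below 1 FPKM in the tip. In the head, hkb and tll were called higher (2 of 3 tested), with sums of 77.1 to 284 FPKM. In the posterior window 4 of 4 tested were called higher, with sums of 968 to 2203 FPKM. Of the 5 germ plasm markers, gcl, nos, osk and pgc were higher in the posterior window, with sums of 67.1 to 418 FPKM there and 14.0 to 34.1 FPKM in the trunk. Of 5 tested mesoderm markers, Cyp310a1, sna, tin and twi were higher in the tip and htl lower. In the posterior window Cyp310a1 and twi were higher and tin lower. In the head, twi differed from the trunk by 0.14 (limma adjusted p = 0.30) and sna by 0.18 (adjusted p = 0.22), and Mef2 and tin were below 1 FPKM. The mesoderm sums were 713 to 1366 FPKM in the tip and 312 to 428 FPKM in the trunk. Of 6 dorsal ectoderm genes, Doc1, Doc2, Doc3 and tup were higher in the head and pnr and zen lower, with sums of 199 to 335 FPKM there and 117 to 226 FPKM in the trunk. In the posterior window Doc1, Doc2 and Doc3 were higher and pnr and zen lower, with sums of 148 to 390 FPKM. In the tip Doc3 and tup were higher and Doc1, Doc2, pnr and zen lower.

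The genes whose profiles were most like each member were sought among 4519 genes with a slice of at least 10 FPKM in every hybrid, by Pearson's r over the slices of an embryo, averaged over the 5 hybrids. These are descriptions, since slices of an embryo share their neighbours and library runs. For gcm they were Lim1 (mean r = 0.90, lowest 0.87), oc (0.87, lowest 0.79) and Gsc (0.83, lowest 0.55), all homeobox genes. For crq they were Cpr73D (0.87, lowest 0.83), ImpL3 (0.87, lowest 0.84) and CG13022 (0.86, lowest 0.80). In the simXsim embryo the r of crq with Cpr73D was -0.12. For NimC4 they were Atg1 (0.81, lowest 0.73), Z600 (0.79, lowest 0.71) and CG8147 (0.79, lowest 0.66). For srp the likeness was looser, with Hel89B (0.66, lowest 0.53), Traf4 (0.53, lowest 0.27) and FBgn0010651 (0.51, lowest 0.40). Among the members, gcm and NimC4 ran opposite (mean r = -0.54, range -0.64 to -0.50), as did NimC4 and crq (-0.46, range -0.65 to -0.32). srp and NimC4 had the highest mean r of the member pairs, at 0.37 (range 0.15 to 0.54).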

How the data were processed

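The authors sequenced each slice after SMART-seq2 amplification and mapped the reads with STAR 2.4.2a to a D. melanogaster genome with the differing bases masked. The deposited FPKM values come from Cufflinks 2.2.1 (annotation 5.57) and are normalized for gene length and mapped fragments. The deposited allele counts are unnormalized whole numbers per gene and species, with release 6 gene coordinates and release 5 base positions, so that counts were used for the 3005 genes with the same coordinates in both. The deposited ASE score is (sim - mel)/(sim + mel). 27 columns of the joint tables, which hold no values, were not used.

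Window and whole-embryo means per embryo were compared with limma 3.58.1 (R 4.3.3) on log2(FPKM + 1), for genes with a mean of at least 0.5 FPKM, and on the ASE of embryos with at least 3 scored slices. Species bias in the tip or the head window alone needed only 2 scored slices per embryo, as did an added setting of the anterior ASE shift. Counts were tested with edgeR 4.0.16 and DESeq2 1.42.0. All tests on counts used the deposited gene sums. The counts and shares printed for members were instead summed over their variable bases, with no base repeated. P-values were Benjamini-Hochberg adjusted over all genes, called below 0.05. ASE curves were steps (51 midpoints) or peaks (8 widths). Fits were tested on simulated data. The members, the gene lists, the windows and the tests were chosen with earlier results of these data known. Genes named are the members, the 3 most alike in profile to each, and the 4 of highest FPKM per list, beside those called. The labels give no batches, and how the library batches listed by the study bear on the results was not tested. Labels name separate embryos, so p-values measure the spread between embryos. Alternatives were other windows, pseudocounts, filters, slices, weights, tools and each embryo left out. Depth limits the precision most for gcm2, Pxn and the anterior slices of NimC4 and gcm. Sequences were not printed.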

Additional observations from a re-analysis of the deposited data

Results flagged for a closer look

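simXmel embryo 1 stood apart from the other hybrids in the tip level of gcm, at 2.61 above the trunk on the log2 scale, against 0.67 to 1.16 in the other 4. Chance sets 1 embryo this far apart in about 1 of 20 groups. The first 3 slices of that embryo also held most of the anterior gcm counts, 441 of D. melanogaster and 46 of D. simulans.

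The anterior minus posterior ASE of crq was below 0 in 2 of 2 simXmel embryos and above 0 in 3 of 3 melXsim embryos. The difference between the crosses was -0.60, and its test was not called (limma adjusted p = 0.058).

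Slices without an ASE score still held allele counts, and in many of them all counts were of 1 species. For NimC4, 16 such slices, all in the first 40% of the axis, held 166 D. simulans counts and no D. melanogaster count, and 1 slice held 9 D. melanogaster counts alone. Scores were given for 23 of the 51 anterior slices, and the slices without one had 255 D. simulans and 68 D. melanogaster counts in all. For crq, 7 slices held 306 D. simulans counts alone and 2 held 58 D. melanogaster counts alone. For gcm, 26 slices held 213 D. melanogaster counts alone and 12 held 55 D. simulans counts alone. In the parental embryos at most 18 counts of a member were of the other species.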

How the results depend on the processing

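Of 336 values of single members under an alternative, 298 kept their direction and their side of the threshold, 10 passed it, 8 fell short and 20 changed sign, none of them called in either setting. Settings that changed a sign gave srp a head difference of 0.15 with narrower windows, a difference between crosses of -0.033 in the head window and a species bias of 0.021 in the trunk. They gave gcm a posterior difference of -0.073 with all 7 embryos, -0.038 for hybrids against parents with a pseudocount of 0.1 FPKM, and a maternal excess of -0.11 with the replicate block. The species bias of NimC4 was -0.21 weighted by FPKM, -0.0020 by edgeR and -0.0012 by DESeq2. Leaving out 1 embryo at a time gave, for srp, -0.069 to 0.045 in the head, -0.067 to 0.33 between crosses and -0.18 to 0.014 for hybrids against parents. For gcm it gave -0.036 to 0.27 at the posterior end, -0.27 to 0.33 for hybrids against parents and -0.11 to 0.20 for maternal excess, and for the tip against head balance of NimC4 -0.23 to 0.46. With no filter on low genes, calls over all genes fell to 397 for the head, 706 for the tip, 452 for the posterior end, 743 between the crosses and 0 for hybrids against parents, and 0 members were called for the posterior end and 0 between the crosses. With all 7 embryos 1070 genes were called for the head and 1472 for the posterior end. Narrower windows called 2 members for the posterior end. The head window alone called 0 members between the crosses. For species bias, edgeR called 82 genes and DESeq2 89, and each called 1 member, as did the mean weighted by FPKM. The tip window alone called 98 genes and 1 member, the head window alone 1 member, and the trunk window alone 155 genes. For maternal excess edgeR called 1182 genes and DESeq2 1194, fewer genes having usable counts. For the anterior ASE shift, edgeR called 15 genes, limma on counts 17, and both, like the setting with 2 slices, called 1 member, NimC4. The single-window settings, the setting with 2 slices and limma on counts were chosen after seeing the data. The cause of these moves was not tested.

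Leaving out 1 embryo at a time, the calls over all genes ranged over 426 to 553 (head), 710 to 1068 (tip), 503 to 831 (posterior end), 588 to 1418 (between crosses), 0 to 1 (hybrids against parents), 111 to 285 (species bias) and 0 to 25 (ASE shift). Member calls ranged over 2 to 4 for the tip, 1 to 2 for the posterior end, and 0 to 1 between the crosses and for the ASE shift.

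With the replicate number as a block, 1 member had a species bias, gcm (-0.63, limma adjusted p = 0.011). Without the block 5.1% of all genes were called for species bias, and the share with the block is not given here. The gcm call thus has no background of its own setting beside it. In the separate comparison of levels between the crosses, 882 genes differed with the block. The deviations of same-numbered embryos correlated at 0.084 and 0.015. The deviations of the simXmel embryos mirror each other by construction, so these values cannot show whether same-numbered embryos share more than a number.

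The main limits are 5 hybrid embryos, 1 embryo per parent, and few counts for gcm2, Pxn and the anterior slices of NimC4 and gcm.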
